A study of Homo sapiens with 6 samples.

Results

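Messages of the unfolded protein response and of the integrated stress response were read in AGS cells, an established line of human gastric adenocarcinoma, treated with an anti-miR oligonucleotide against miR-25-3p, or with non-targeting RNA as the control. The group held 32 listed genes of these pathways. All 32 were measured, on 427 probe sets that name 1 member alone, out of 18656 genes and 224320 such probe sets on the array. The members were sorted into 4 sensors and transcription factors, 11 chaperones and cofactors driven by XBP1 and ATF6, 9 genes of endoplasmic reticulum (ER) associated degradation, 2 genes of protein translocation and export, and ATF4 with 5 of its targets.

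There were 3 arrays per group, which the labels call biological replicates. Both groups were transfected with lipid and transfected again 24 h later, with harvest for total RNA at 48 h from the start. Control cells went through the same transfections with a non-targeting RNA, so the comparison asked which messages differ with the anti-miR inhibitor beyond transfection itself. No untransfected cells and no cells under a known ER stressor were analysed here. The labels give no dose of the oligonucleotides. From 500 ng of RNA per sample, biotin-labelled cDNA was hybridised to the Affymetrix Human Gene 1.0 ST array. All values are on a log2 scale, and each difference is inhibitor minus control. The array gives no length-corrected level, so the members' levels were not compared with each other.

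Secreted and membrane proteins fold in the ER, and 3 membrane sensors there report unfolded protein: IRE1 (gene ERN1), PERK (EIF2AK3) and ATF6. IRE1 splices the XBP1 message, and XBP1 and cleaved ATF6 then switch on chaperones and degradation genes. PERK phosphorylates the translation factor eIF2, as do kinases that sense amino acid shortage, double-stranded RNA or haem loss, and the message of ATF4 is then translated better. ATF4 in turn drives amino acid genes and the regulators CHOP (DDIT3), TRIB3, CHAC1 and GADD34 (PPP1R15A). Splicing of XBP1, cleavage of ATF6 and translation of ATF4 are not visible as total message, so the members report on these steps mainly through the targets.

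The microRNA that the inhibitor was made against is shown with its seed, bases 2 to 8, in capitals. RefSeq places this mature strand on the minus strand of GRCh38.p14 at chr7:100093571-100093592. The same 7 letters stand at these positions in 6 mature human microRNAs of the RefSeq table, miR-25-3p among them.
miR-25-3p: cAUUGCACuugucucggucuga

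Promoter letters are shown because the elements below are those through which the factors are known to reach these genes. Several members are textbook targets from which the elements were defined, so a match in them is not independent of how they were chosen. RefSeq windows of 300 bases, from 250 before to 50 after an annotated start, were matched by symbol for 28 of the 32 members, and DERL1, DERL3, PDIA3 and SEC24D had no entry. The ER stress response element (ERSE), CCAAT and CCACG held apart by 9 bases of any kind, is bound by NF-Y at one end and by ATF6 or XBP1 at the other. It was found on either strand in 7 members, CALR, CANX, CRELD2, HSP90B1, HSPA5, PDIA6 and XBP1. These were 7 of the 25 genes with a match among 27305 genes with windows of this length, a share of 0.0916% for all genes. The related ERSE-II, ATTGG and CCACG with 1 base of any kind between them, was searched in the same way and found in HERPUD1, HYOU1 and SDF2L1, against 0.0696% of all genes. The XBP1 element TGACGTGG was found, of the members, in HYOU1, where it overlaps an ERSE-II match, against 0.927% of all genes. The core of the ATF4 element, TGATGNAA, was found in ASNS, CHAC1 and HERPUD1, against 4.46% of all genes. A match is a string of letters and not a measured binding site.

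Matches are printed in the direction of the element, with 6 flanking bases on each side and the fixed letters in capitals. The capitals of an element are the same in each gene because the search required them, so they show no likeness between promoters. The free and flanking bases differ between genes.
HSPA5 ERSE: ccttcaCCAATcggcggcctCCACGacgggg
HSP90B1 ERSE, far copy: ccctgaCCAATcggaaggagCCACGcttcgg
HSP90B1 ERSE, near copy: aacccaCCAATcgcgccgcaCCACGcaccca
PDIA6 ERSE: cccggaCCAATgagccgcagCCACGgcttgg
CALR ERSE: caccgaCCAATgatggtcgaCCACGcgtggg
CANX ERSE: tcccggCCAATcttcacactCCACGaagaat
CRELD2 ERSE: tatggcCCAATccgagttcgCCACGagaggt
XBP1 ERSE: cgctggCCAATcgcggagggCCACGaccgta
HERPUD1 ERSE-II: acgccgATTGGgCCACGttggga
SDF2L1 ERSE-II: gttttgATTGGtCCACGcttccg
ASNS ATF4 element: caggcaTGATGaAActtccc
CHAC1 ATF4 element: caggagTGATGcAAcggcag

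The HSPA5 match lies at chr9:125241391-125241409 of GRCh38.p14, upstream of the gene on the minus strand. The 150 bases before that start site, chr9:125241344-125241493, are printed 5′ to 3′ on the gene's strand with the same letters in capitals. The near HSP90B1 match lies at chr12:103930321-103930339, the XBP1 match at chr22:28800603-28800621 and the ASNS match at chr7:97872469-97872476, each upstream of a start site.
HSPA5 upstream: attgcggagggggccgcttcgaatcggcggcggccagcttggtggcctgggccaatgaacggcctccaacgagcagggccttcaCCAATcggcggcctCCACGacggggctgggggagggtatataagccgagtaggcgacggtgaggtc

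**Figure D1:**
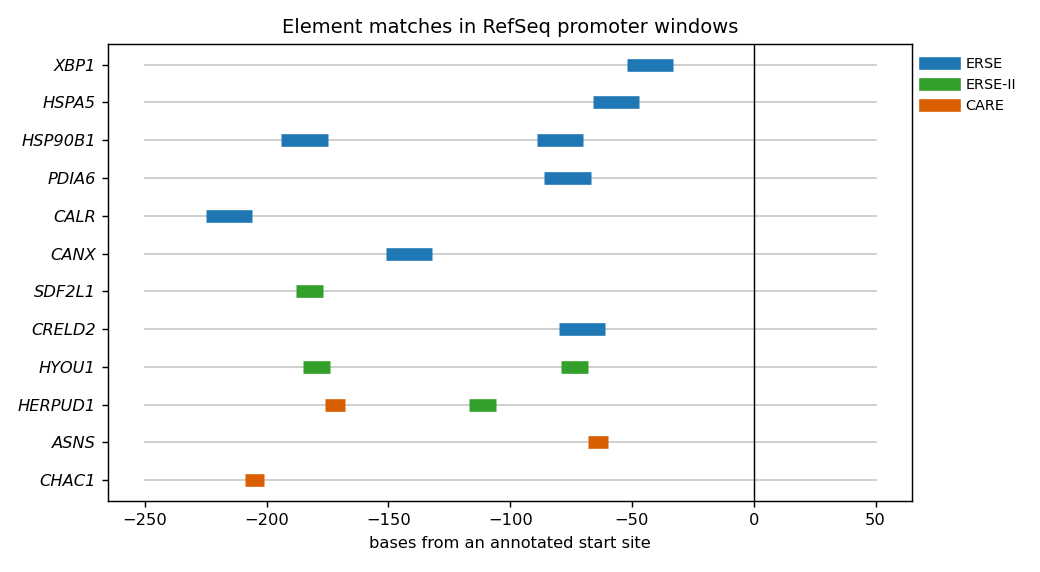
Positions of element matches in RefSeq promoter windows, in bases from an annotated start site on the horizontal axis, with 1 gene per line. Each coloured block is a match and each grey line the window of 300 bases. Every match lies before the start site. HSP90B1 has 2 ERSE matches and HYOU1 has 2 ERSE-II matches. The TGACGTGG match of HYOU1 is not drawn.

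Among the XBP1 and ATF6 chaperones, and likewise among the ATF4 targets, no gene passed the test in either direction. Limma called 0 of the 32 members at an adjusted p under 0.05, where it called 0.0% of all genes. At an unadjusted p under 0.05 (limma, two-sided) it counted 0 of 32, against 6.12% of all genes. The adjusted p of the members ran from 0.79 to 1.00. The median member difference was 0.0066 beside 0.0021 over all genes, and 18 members were positive and 14 negative, where 50.5% of all genes were positive and 49.3% negative. The median size of a difference, without its sign, was 0.061 for members and 0.091 for all genes. Only DERL2 and DDIT3 differed by more than 0.2, against 15.1% of all genes. The values of both groups did not overlap for 3 members, HSP90B1, DERL2 and CALR, a share of 9.38% where the share over all genes was 12.9%. None of the members lay in the dimmest 30% of genes, so all 32 passed that filter.

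The precision differed between members. The 95% interval of the difference lay within 0.3 on both sides of 0 for 13 members. It reached a size of 0.5 for DDIT3 and PPP1R15A and a size of 1 for none of the 32. In a culture, less message per cell and fewer cells making it cannot be told apart.

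**Figure D2:**
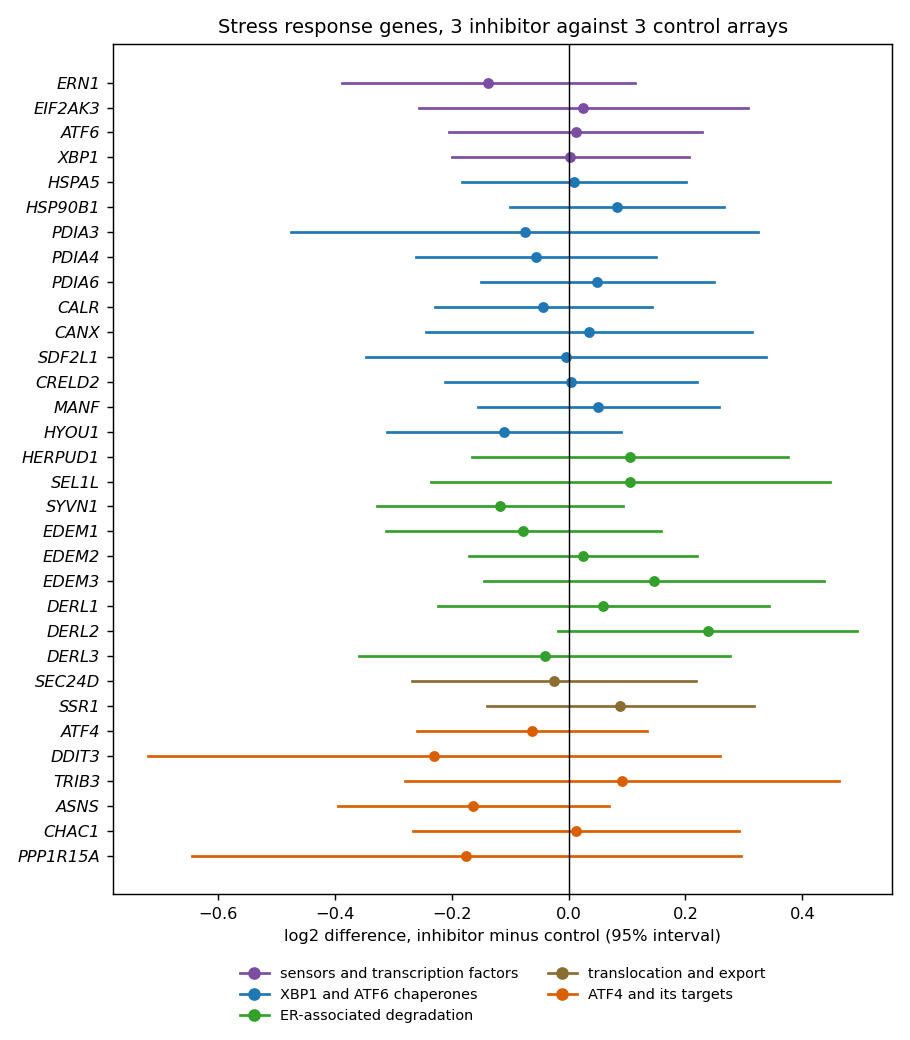
Difference between 3 inhibitor and 3 control arrays for each of the 32 members on the horizontal axis (log2), coloured by role. Points are limma estimates and bars their 95% intervals. Every bar crosses 0, and the bars of DDIT3 and PPP1R15A are the widest.

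Of the sensors and their transcription factors, none passed the test. XBP1, the factor that carries the IRE1 signal to the nucleus, read 9.60, 9.45 and 9.44 in control and 9.47, 9.48 and 9.54 in inhibitor arrays. The inhibitor values all lay between the lowest and highest control value. The difference was 0.0033 (SE 0.089), with a 95% interval of -0.20 to 0.21, or from 12.9% lower to 15.4% higher. Its 7 probe sets lay between -0.17 and 0.080. ERN1, the IRE1 sensor and RNA splicing enzyme, read 5.82, 5.93 and 5.58 in control and 5.70, 5.57 and 5.65 in inhibitor arrays. The groups overlapped, and the difference was -0.14 (SE 0.11), with 13 of 24 probe sets negative. EIF2AK3, the PERK kinase, read 6.47, 6.78 and 6.88 in control and 6.74, 6.62 and 6.84 in inhibitor arrays. All inhibitor arrays lay inside the control range, with a difference of 0.025 (SE 0.12). ATF6, the sensor that is cut in the Golgi to free a transcription factor, had a difference of 0.012 (SE 0.095). Its inhibitor arrays lay within 9.06 to 9.08, inside a control range of 8.91 to 9.17.

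The chaperones of the XBP1 and ATF6 arm had the lowest median SE of the 5 role groups, 0.090. Single chaperones ran from 0.080 to 0.18, the last for PDIA3. In control arrays the 11 members averaged 9.54 ± 0.039 (SD, n = 3), and with the inhibitor they averaged 9.53 ± 0.034 (SD, n = 3), a difference of -0.0053. Of these, 6 were positive and 5 negative, between -0.11 and 0.083. HSPA5, known as BiP, is the main Hsp70 chaperone of the ER lumen, holds the sensors inactive and is the usual marker of the response. It read 10.42, 10.44 and 10.39 in control and 10.45, 10.35 and 10.47 in inhibitor arrays. The control arrays lay inside the range of the inhibitor arrays, and the difference was 0.0089 (SE 0.084), with a 95% interval from 11.9% lower to 14.9% higher.

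HSP90B1, the ER form of Hsp90 known as GRP94, read 12.18, 12.15 and 12.17 in control and 12.24, 12.24 and 12.26 in inhibitor arrays. All inhibitor arrays were higher, by a difference of 0.083 (SE 0.080) that limma did not call (unadjusted p = 0.33, adjusted p = 0.86). It turned to -0.037 with the brightest probe set alone. Of its 16 probe sets 10 were positive, 1 of them at 0.86 and the next highest at 0.24. The gene's own arrays differed by only 0.016 (SD, n = 3) in control, well under the moderated SE, which borrows its spread from all genes. CALR, the lectin chaperone and calcium store calreticulin, read 11.74, 11.67 and 11.67 in control and 11.66, 11.66 and 11.63 in inhibitor arrays. Here all inhibitor arrays were lower, by -0.044 (SE 0.082, adjusted p = 0.93 in limma). HYOU1, the large Hsp70-like partner of BiP, read 9.60, 9.50 and 9.44 in control and 9.38, 9.45 and 9.38 in inhibitor arrays. Its groups overlapped, the difference was -0.11 (SE 0.088), and 24 of its 33 probe sets were negative. CALR and HSP90B1 both carry ERSE matches, as printed above. Their differences had opposite signs, though neither was called, and CALR was the only negative member of the 7 with a match.

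The other chaperone genes lay between -0.075 and 0.051. PDIA4 had -0.056 (SE 0.090) and PDIA6 0.049 (SE 0.088), both protein disulfide isomerases. CANX, the membrane-bound partner of calreticulin, had 0.035 (SE 0.12). MANF, a small secreted protein of the stressed ER, had 0.051 (SE 0.091), and CRELD2, a secreted folding factor, had 0.0043 (SE 0.095). SDF2L1, which works with BiP, had -0.0050 (SE 0.15). The isomerase PDIA3 had only 2 probe sets of its own, with a difference of -0.075 (SE 0.18). The annotation names another 14 for PDIA3 and PDIA3P together. With those added, a choice made after the data were seen, PDIA3 read 10.77, 10.92 and 10.92 in control and 10.98, 10.81 and 11.01 in inhibitor arrays, a difference of 0.064 (SE 0.096). The 7 members with an ERSE match ran from -0.044 to 0.083, with a median of 0.0089, 6 of them positive and 1 negative. The other 21 with a window ran from -0.23 to 0.24, with a median of 0.012, 11 positive and 10 negative.

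In the degradation branch, as for members of other groups, 1 control array stood apart, and none of the 9 genes passed the test. This branch pulls misfolded proteins out of the ER for the proteasome. Control replicate 1 was the lowest of all 6 arrays for 5 of the 9 genes, HERPUD1, SEL1L, EDEM3, DERL1 and DERL2, and for both SEC24D and SSR1. It was also the lowest for 2 of the 4 sensors and factors, 3 of the 11 chaperones and 1 of the 6 genes of the ATF4 arm. Over all 32 members it was the lowest for 13, a share of 40.6%, where 27.0% of all genes had their lowest value there. It was the highest for 6 members, against 20.4% of all genes. This array had a mean correlation of 0.9915 with the other 5, against 0.9933 to 0.9938 for those. DERL2, a derlin of the retrotranslocation channel, had the largest difference of the group. It read 8.23, 8.53 and 8.56 in control and 8.58, 8.74 and 8.71 in inhibitor arrays, so all inhibitor arrays were higher. The difference was 0.24 (SE 0.11), with 7 of 8 probe sets positive and a 95% interval of -0.018 to 0.49 (limma, unadjusted p = 0.064, adjusted p = 0.79). Without control replicate 1 it was 0.13, with an unadjusted p of 0.19 in limma.

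SEL1L, the adaptor of the degradation ligase, read 8.23, 8.64 and 8.80 in control and 8.57, 8.60 and 8.81 in inhibitor arrays. Control replicate 1 lay apart below the other 5 arrays, and the difference of 0.11 (SE 0.15) became -0.058 without it. SYVN1, the ligase itself, read 7.16, 7.33 and 7.20 in control and 7.11, 7.04 and 7.20 in inhibitor arrays. The groups overlapped, and the difference was -0.12 (SE 0.092), with 13 of 16 probe sets negative. HERPUD1, a membrane scaffold of the ligase complex, had 0.11 (SE 0.12), which became -0.0082 without control replicate 1. The EDEM proteins trim mannose from misfolded glycoproteins to mark them for removal. EDEM3 had 0.15 (SE 0.13, 0.022 without control replicate 1), EDEM2 0.025 (SE 0.085) and EDEM1 -0.078 (SE 0.10). The derlins DERL1 and DERL3 had 0.059 (SE 0.12) and -0.041 (SE 0.14), and both signs turned without control replicate 1. The 9 genes averaged 7.55 ± 0.11 (SD, n = 3) in control arrays. With the inhibitor they averaged 7.60 ± 0.061 (SD, n = 3). Their mean difference of 0.049 became -0.015 without control replicate 1.

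SSR1, a subunit of the translocon-associated protein complex, read 10.25, 10.50 and 10.52 in control and 10.54, 10.51 and 10.47 in inhibitor arrays. Control replicate 1 was again low, and the difference of 0.089 (SE 0.10) was 0.0022 without it. SEC24D, a cargo adaptor of vesicles that leave the ER, read 7.45, 7.54 and 7.71 in control and 7.49, 7.45 and 7.68 in inhibitor arrays. The inhibitor arrays lay inside the control range, with a difference of -0.025 (SE 0.11). Of its 30 probe sets 20 were negative and 10 positive. The brightest, at 10.56 in control arrays, had -0.20, while a dim one, at 1.52 in control arrays, had 0.52.

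**Figure D3:**
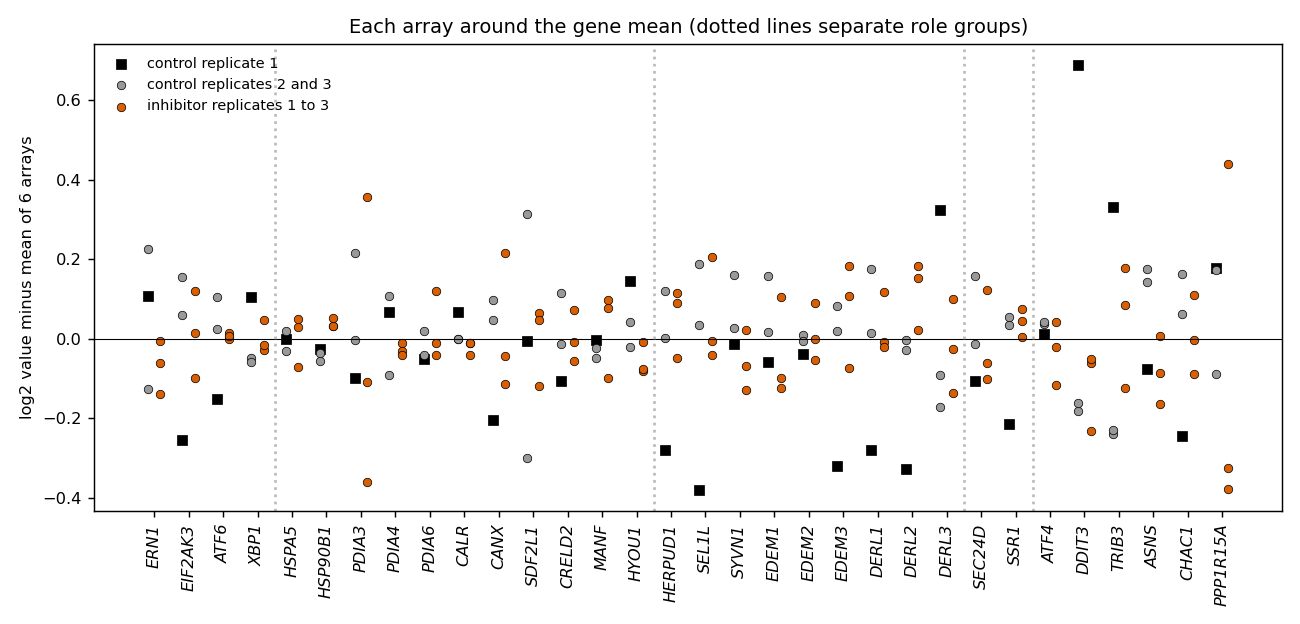
Value of each array minus the mean of all 6 arrays for that gene (log2), for the 32 members in role order. Black squares are control replicate 1, grey points control replicates 2 and 3, and orange points the inhibitor arrays. The squares lie lowest for SEL1L, DERL2, EDEM3, HERPUD1 and DERL1 and highest for DDIT3, TRIB3 and DERL3.

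In the ATF4 arm 2 genes were positive and 4 negative, and none passed the test. Its 6 genes averaged 6.55 ± 0.093 (SD, n = 3) in control arrays. With the inhibitor they averaged 6.46 ± 0.12 (SD, n = 3). Their mean difference of -0.088 turned to 0.081 when the median of each gene's probe sets was used. It was -0.035 without control replicate 1, -0.045 without inhibitor replicate 1 and -0.16 without inhibitor replicate 3. ATF4, the central activator, read 8.68, 8.71 and 8.71 in control and 8.71, 8.55 and 8.65 in inhibitor arrays. Inhibitor replicate 1 equalled the highest control array, the other inhibitor arrays lay below all control arrays, and the difference was -0.062 (SE 0.086), within an interval from 16.4% lower to 9.7% higher. ASNS, which makes asparagine and is a standard target of ATF4, read 7.26, 7.48 and 7.51 in control and 7.34, 7.17 and 7.25 in inhibitor arrays. Control replicate 1 lay among the inhibitor arrays. The difference was -0.16 (SE 0.10, unadjusted p = 0.15 in limma). It became -0.24 without control replicate 1 (unadjusted p = 0.034, adjusted p = 0.74 in limma) and was 0.20 where the median over its 15 probe sets, 8 of them positive, replaced the mean.

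DDIT3, which encodes the pro-apoptotic factor CHOP, had 1 probe set of its own. It read 5.77, 4.90 and 4.92 in control and 4.85, 5.02 and 5.03 in inhibitor arrays. Control replicate 1 alone was high, so the difference of -0.23 (SE 0.21) became 0.057 without it. The annotation names another 4 probe sets for DDIT3 together with NR1H3, of which 3 were negative. With these added, a choice made after the data were seen, the 5 probe sets averaged 4.48, 4.51 and 4.42 in control and 4.23, 4.27 and 4.06 in inhibitor arrays. On that reading all inhibitor arrays were lower, by -0.28 (SE 0.092, unadjusted p = 0.014, adjusted p = 0.79 in limma). Which gene those 4 probe sets read was not tested.

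TRIB3, a pseudokinase that restrains AKT and ATF4, read 5.57, 5.00 and 5.00 in control and 5.11, 5.32 and 5.41 in inhibitor arrays. Control replicate 1 was again the highest. The difference was 0.092 (SE 0.16) with it and 0.28 without it (unadjusted p = 0.040, adjusted p = 0.74 in limma). On the mean of their probe sets TRIB3 and ASNS thus had opposite signs in the 5 remaining arrays. They were the only members with an unadjusted p under 0.05 there, 2 of 32 against 6.74% of all genes in that fit. Over all 6 arrays 8 of the 15 ASNS probe sets were positive. The sign of ASNS turned there with the median of its probe sets and with the brightest. CHAC1, which breaks down glutathione, had 0.012 (SE 0.12). PPP1R15A, the phosphatase subunit that reverses eIF2 phosphorylation, had -0.18 (SE 0.21) and a wide spread in inhibitor arrays, at 5.32, 5.37 and 6.13. The widest spread was in 1 of its 4 probe sets, which read 2.78, 1.57 and 3.0 in control and 1.45, 1.34 and 4.22 in inhibitor arrays. Without inhibitor replicate 3 the PPP1R15A difference was -0.44, with an unadjusted p of 0.0070 and an adjusted p of 0.91 in limma. In that fit 988 of all 18656 genes had an unadjusted p under 0.05.

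Below the level of the gene, single probe sets were examined for parts of a transcript that differ. This fit was added after the data were seen. Limma called 0 of the 427 member probe sets, with a smallest adjusted p of 0.76. At an unadjusted p under 0.05 it counted 13, or 3.04%, against 6.21% of all probe sets, with 6 higher and 7 lower. The smallest p belonged to 1 of the 15 ASNS probe sets. It read 3.72, 3.54 and 3.97 in control and 2.81, 2.97 and 2.72 in inhibitor arrays. The difference was -0.91 (SE 0.17, unadjusted p = 0.0018 in limma). This probe set was the dimmest of the 15 and lay below the array medians of 6.02 to 6.07. The brightest of the 15 had 0.077. SEC24D held 3 of the 13, at -0.39, -0.84 and 0.93, and DERL1 held 2, at 0.55 and -1.11. In both genes the probe sets thus stood on both sides of 0. HSP90B1 had 1, from 9.75 in control to 10.6 in inhibitor arrays, a difference of 0.86 (SE 0.24). HSPA5 had 1, at 8.08, 7.89 and 8.02 in control and 8.31, 8.54 and 8.57 in inhibitor arrays, a difference of 0.48 (SE 0.15), while 5 of its 9 probe sets were negative.

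**Figure D4:**
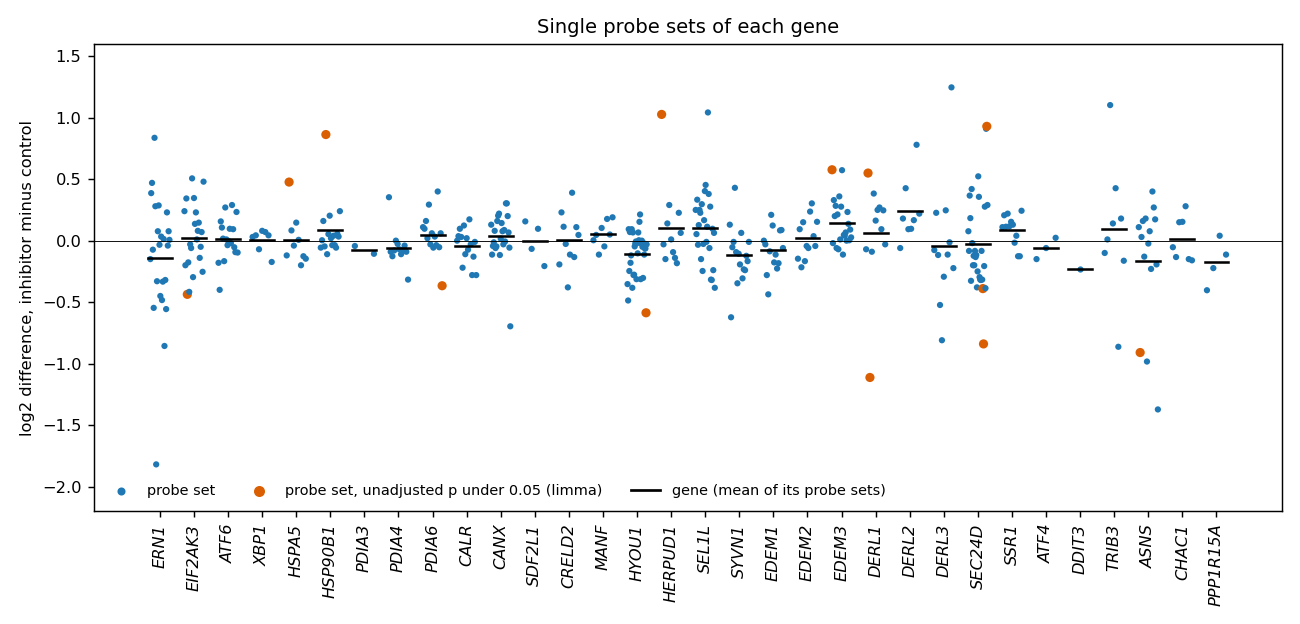
Difference between inhibitor and control arrays for each of the 427 probe sets (log2), by gene. Orange points are the 13 probe sets with an unadjusted p under 0.05 and black lines the gene values. Probe sets of 1 gene scatter on both sides of 0, most widely in ERN1, SEC24D, DERL3, TRIB3 and ASNS.

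Another 122 genes of the same pathways were listed from general knowledge, and 116 were measured. Limma called 0 of them, with a smallest adjusted p of 0.79, and 4 had an unadjusted p under 0.05, or 3.45% against 6.12% of all genes, all with positive differences. The 19 other folding genes had a median of 0.0093, with 10 positive and 9 negative. DNAJB9, a co-chaperone induced by XBP1, had 0.16 (SE 0.089), and ERP44, which retains proteins in the early secretory pathway, 0.17 (SE 0.093). The prolyl isomerase FKBP2 had -0.072 (SE 0.081) and SIL1, a nucleotide exchange factor of BiP, -0.073 (SE 0.091). The 13 other degradation genes measured had a median of -0.017, between OS9 at -0.18 (SE 0.099) and ERLEC1 at 0.21 (SE 0.12), both lectins. Of the rest AUP1 had -0.12 (SE 0.11) and the ubiquitin-conjugating enzyme UBE2J1 0.047 (SE 0.094). The 23 translocon and export genes had a median of 0.056, with 16 positive. Among them the translocon subunit SEC61B had 0.18 (SE 0.088) and SRP54, of the signal recognition particle, 0.18 (SE 0.094), while the signal peptidase subunit SPCS3 had -0.15 (SE 0.093) and SEC24A -0.13 (SE 0.080). The 21 regulators had a median of 0.0089. CREB3L2, a membrane-bound transcription factor of secretory cells, had -0.18 (SE 0.082) and its relative CREB3L1 -0.21 (SE 0.13). MBTPS2, the protease that frees ATF6, had 0.16 (SE 0.13) and the eIF2B subunit EIF2B1 0.095 (SE 0.10).

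The 30 other ATF4 targets had a median of 0.017, with 17 positive, 13 negative and 3 at an unadjusted p under 0.05, or 10.0% of the list, against 6.12% of all genes. SLC7A11, the cystine importer, read 4.55, 4.99 and 5.44 in control and 5.52, 5.49 and 5.63 in inhibitor arrays. All inhibitor arrays were higher, by 0.56 (SE 0.19, unadjusted p = 0.020, adjusted p = 0.79 in limma). The difference was 0.33 without control replicate 1 (unadjusted p = 0.049 in limma). With the brightest probe set it was 0.28 (unadjusted p = 0.22 in limma). With the median of probe sets it was 0.44 (unadjusted p = 0.086 in limma). PSPH, of serine synthesis, read 7.11, 7.25 and 7.13 in control and 7.39, 7.49 and 7.41 in inhibitor arrays, a difference of 0.26 (SE 0.088, unadjusted p = 0.015, adjusted p = 0.79 in limma). With the median of its probe sets PSPH had 0.20 (unadjusted p = 0.19 in limma). With the brightest it had 0.26 (unadjusted p = 0.057 in limma). JDP2, an AP-1 family repressor, was the remaining one, at 0.20, which turned to -0.017 with the brightest probe set. It is named here because it is one of 3, a choice made after its value was seen. On the other side PCK2, the mitochondrial PEP carboxykinase, had -0.15 (SE 0.098) and the transaminase GPT2 -0.13 (SE 0.090). Of 14 listed tRNA synthetases and transport genes, 10 were measured, with a median of 0.053 and 7 positive. XPOT, the tRNA exporter, read 9.30, 9.39 and 9.40 in control and 9.67, 9.66 and 9.79 in inhibitor arrays. It was higher in all inhibitor arrays, by 0.35 (SE 0.087, unadjusted p = 0.0037, adjusted p = 0.79 in limma). Where probe sets were combined by their median, XPOT had 0.21 (unadjusted p = 0.17 in limma). The leucine enzyme LARS1 had 0.16 (SE 0.095), the tryptophan enzyme WARS1 -0.13 (SE 0.11) and the asparagine enzyme NARS1 -0.069 (SE 0.097).

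**Figure D5:**
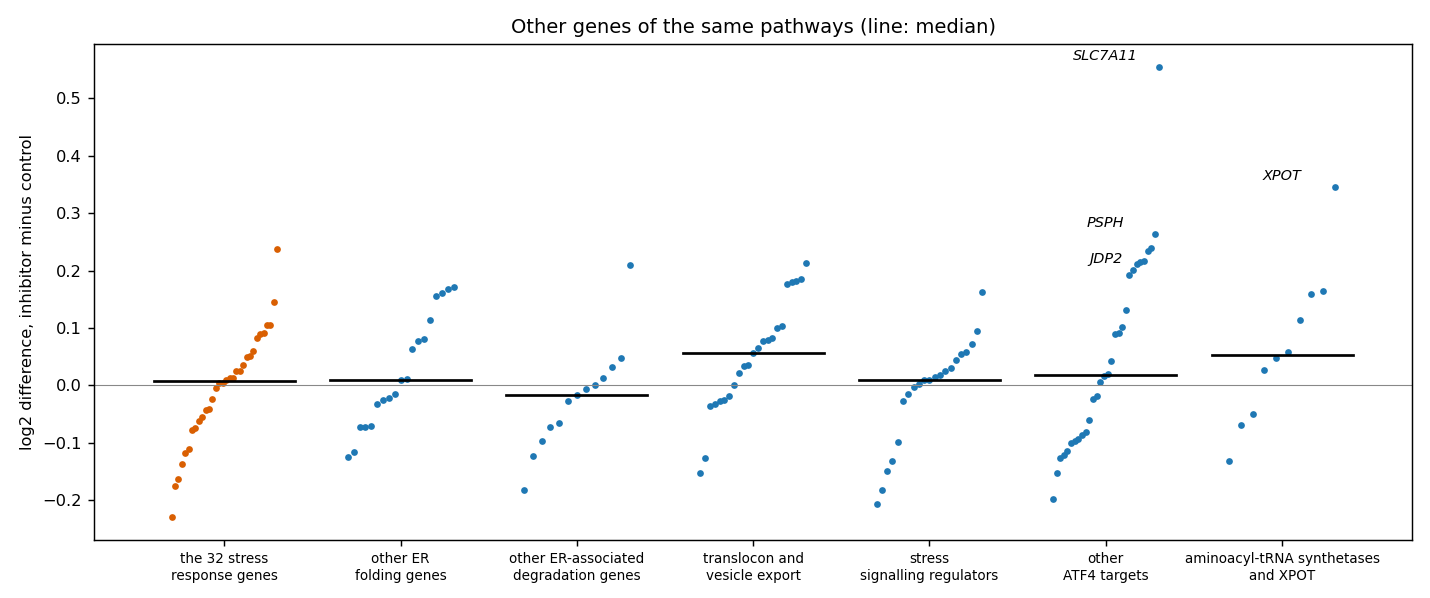
Differences between inhibitor and control arrays (log2) for the 32 members in orange and for 116 other pathway genes in 6 lists in blue, sorted within each list. Black lines are medians, and names mark the 4 genes with an unadjusted p under 0.05. The medians lie between -0.017 and 0.056.

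The labelled cell type was checked on its markers. Array values of different genes are not on a shared scale, so this is a rough check. None of the 6 epithelial markers was among the dimmest 30% of genes. The mean level of each other list is given for both groups only to show how it moved. Fibroblast markers averaged 4.14 to 4.35 in control and 4.19 to 4.31 in inhibitor arrays, and leukocyte markers 3.43 to 3.70 and 3.67 to 3.73. Endothelial markers averaged 3.60 to 3.80 and 3.55 to 3.60, and plasma cell markers 3.95 to 3.99 and 3.98 to 4.06. Of these 20 measured markers 14 were among the dimmest 30% of genes, and the part of other cells in the results was not tested.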

How the data were processed

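The authors deposited log2 expression values of exon-sized probe sets, 1 column per array and rounded to 2 decimals. RMA is among the tools in the submitters' processing notes, beside Transcriptome Analysis Console and Affymetrix Expression Console; versions, settings and the genome build are not given in the sources used here. RMA makes arrays nearly alike in distribution, which hides any shift common to most genes. The 6 array medians lay between 6.02 and 6.07, and precision rests on 3 arrays per group.

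The platform annotation named the probe sets, with older symbols updated through RefSeq (GRCh38.p14). A gene value was the mean log2 value over its probe sets, leaving out those that name several genes. All 18656 genes were fitted in limma 3.58.1 (R 4.3.3, lmFit and eBayes) without a replicate block, with Benjamini-Hochberg adjustment over all genes and a threshold of 0.05. The fit was tested on simulated data, with normal noise independent between genes and 200 of 18656 genes changed. Limma recovered 1.6% of log2 changes of 0.3, 19% of those of 0.5 and 89.2% of those of 1. False calls made up 5.85%. Changes of 0.3 or 0.5 were thus mostly missed there.

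The members, role groups and lists were chosen with earlier results of these data known, so counts and medians are descriptions. Values per array are given for HSPA5, XBP1, ATF4 and DDIT3, for the 2 members with the smallest p in each role group and for members whose groups did not overlap; others were added where 1 array decided the value. Up to 2 genes each way with the smallest p were named per wider list.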

Additional observations from a re-analysis of the deposited data

How the results depend on the processing

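Limma called 0 members under each alternative, and 0 genes in all except 1 gene when an array was left out; the smallest member adjusted p was 0.70. Members at an unadjusted p under 0.05 numbered 1 with the replicate block, 1 with arrays centred on their median and 1 with an intensity trend, each time DERL2. They numbered 2 with the brightest probe set and 0 to 2 when 1 array was left out. Over all 18656 genes the main fit counted 1141, or 6.12%. The count was 1161 with the block, 1121 with centred arrays, 1241 with the trend and 1163 with the brightest probe set. With 1 array left out it was 856 to 1271. Of the single member probe sets 13 passed, or 3.04% against 6.21% of all probe sets. Same-numbered arrays deviated together with correlations of -0.032, -0.040 and 0.17 across genes, which did not show the numbers to pair arrays. With the brightest probe set the mean change was 0.036 for sensors, -0.054 for chaperones, -0.14 for degradation genes and -0.11 for translocation and export, and the median of stress signalling regulators was -0.077. With the median of probe sets the ATF4 group had 0.081 and the translocon list 0.0033. With symbols as given, the tRNA list held XPOT alone, at 0.35. When 1 array was left out, the median lay between -0.056 and 0.043 for stress signalling regulators and between -0.0071 and 0.062 for other ATF4 targets.

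The sign of 23 members turned under at least 1 alternative, and that of 9 never did. With the brightest probe set it turned for ERN1 (0.0067), EIF2AK3 (-0.050), HSPA5 (-0.13), HSP90B1 (-0.037), CANX (-0.047), CRELD2 (-0.027), HERPUD1 (-0.14), SEL1L (-0.38), SSR1 (-0.017) and ASNS (0.077). With the median it turned for EIF2AK3 (-0.057), XBP1 (-0.047), HERPUD1 (-0.057), EDEM1 (0.025), ATF4 (0.023) and ASNS (0.20). It also turned for EIF2AK3 without the dimmest 30% of probe sets (-0.015), SDF2L1 with centred arrays (0.0015) and PDIA3 with shared probe sets (0.064). Leaving out arrays gave ranges of -0.095 to 0.11 for EIF2AK3, -0.060 to 0.068 for ATF6, -0.026 to 0.056 for XBP1, -0.012 to 0.045 for HSPA5, -0.27 to 0.086 for PDIA3, -0.062 to 0.10 for CANX, -0.16 to 0.15 for SDF2L1, -0.048 to 0.063 for CRELD2, -0.0082 to 0.19 for HERPUD1, -0.058 to 0.23 for SEL1L, -0.014 to 0.058 for EDEM2, -0.065 to 0.16 for DERL1, -0.14 to 0.11 for DERL3, -0.093 to 0.047 for SEC24D, -0.38 to 0.057 for DDIT3, -0.0046 to 0.28 for TRIB3 and -0.11 to 0.098 for CHAC1. The cause was not tested.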
